A study of Mus musculus with 18 samples.

Results

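Mir147 is the mouse hairpin locus of the microRNA miR-147, and it was followed here in cells labelled ASC, grown from adipose tissue, and in their extracellular vesicles (EVs). It is 1 of 2009 miRNA hairpin loci in the deposited count files and 1 of the 245 loci that passed the filter on low counts. The locus was chosen by its measured counts over the 4 groups, so its levels, fold changes and ranks are given as a description, with no test. The 18 libraries are bulk small RNA libraries from mice labelled strain NGL, adult, adipose tissue. Naive ASC (n = 4) received no interferon, and primed ASC (n = 4) were exposed to interferon gamma for 24 h. Cells of both kinds were then grown for 48 h in alpha MEM with 2% EV-free serum, and naive EVs (n = 5) and primed EVs (n = 5) came from such cultures. RNA of cells was isolated with TRIzol and RNeasy columns and RNA of EVs with a SeraMir column kit, so sample type and isolation method cannot be told apart. Whether the libraries of a group stem from different animals is not labelled, and p-values therefore reflect only the spread between these libraries, which may be technical. The titles of naive EV 1 and 2 hold the numbers 1+2 and 2, and those of primed EV 1 and 5 both hold 5. That of naive ASC 1 also holds 1+2. What these numbers stand for is not labelled, and the main tests treated all libraries as independent. Titles with 1+2 were not matched to titles with 2. Across loci, the deviations of naive EV 1 and primed EV 2 correlated at 0.661, above all pairs with the same source number (highest 0.501). Naive ASC 1 correlated at 0.342 with primed ASC 2 and at 0.315 with naive EV 2. Whether these libraries share a source was not tested. A label field on the kind of RNA calls all 18 libraries EV miRNA, and the source names were used to separate ASC from EVs.

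MicroRNAs are cut from hairpin transcripts and guide silencing complexes to mRNAs through a short seed at their 5′ end. miR-147 is known from macrophages, where Toll-like receptor signals raise it and where it dampens the production of inflammatory cytokines. Interferon gamma, the cytokine used for priming, is made by activated T cells and natural killer cells. EVs are membrane-enclosed particles that carry RNA and protein out of the cell.

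The hairpin is 79 bases long and lies on the plus strand of chromosome 2 from 122640803 to 122640881 (GRCm38). In GENCODE M21 it sits inside exon 5 (122640701 to 122641191) of a transcript of the protein-coding gene AA467197, in its UTR and 37 bases past the last coding base. A shorter transcript holds it in exon 4. AA467197, also called Nmes1, encodes a small mitochondrial protein. Counts were made over the hairpin without regard to strand, so reads from the mature arms, the precursor and the host transcript are not told apart. RefSeq (GRCm38.p6) lists miR-147-5p, which is 24 bases long and reaches from 122640814 to 122640837. It is shown with miR-155-5p, miR-146a-5p and miR-21a-5p, products of inflammatory loci that serve below as a comparison, and with miR-125a-5p, miR-125b-5p and miR-351-5p, products of loci that changed in primed cells. Capitals mark the seed, bases 2 to 8.
miR-147-5p: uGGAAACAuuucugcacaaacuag
miR-155-5p: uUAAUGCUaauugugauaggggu
miR-146a-5p: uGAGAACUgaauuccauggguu
miR-21a-5p: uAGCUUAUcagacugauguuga
miR-125a-5p: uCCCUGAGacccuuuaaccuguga
miR-125b-5p: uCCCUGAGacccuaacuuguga
miR-351-5p: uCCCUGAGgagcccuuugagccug
The table of mature miRNAs holds only 1 entry for Mir147, so the comparison of seeds covers miR-147-5p and not miR-147-3p. Whether miR-147-3p shares its seed with other miRNAs, those of the comparison loci included, was not examined. The seed of miR-147-5p is shared with 0 of the other entries among 1679 mature miRNAs in the table, and bases 2 to 7 with 1, miR-8107, whose locus had 0 counts in all libraries. miR-125a-5p, miR-125b-5p and miR-351-5p have 1 seed in common.

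Mir147 was lowest in naive cells, higher in primed cells and in naive EVs, and highest in primed EVs. In naive ASC 1, 3, 4 and 5 it had 1, 3, 1 and 1 counts, which after TMM scaling is 1.71, 2.74, 0.903 and 1.23 CPM. CPM are counts per 1000000 counts of the scaled library total. In primed ASC 2, 3, 4 and 5 it had 5, 9, 4 and 6 counts, or 4.54, 24.2, 16.6 and 7.45 CPM. All 4 primed cell libraries lay above all 4 naive ones. In naive EV 1 to 5 it had 19, 14, 16, 6 and 14 counts, or 9.31, 16.6, 14.4, 9.96 and 23.1 CPM. In primed EV 1 to 5 it had 75, 137, 121, 244 and 24 counts, or 141, 51.1, 137, 264 and 49.9 CPM. No primed EV library came down to the highest library of any other group.

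**Figure D1:**
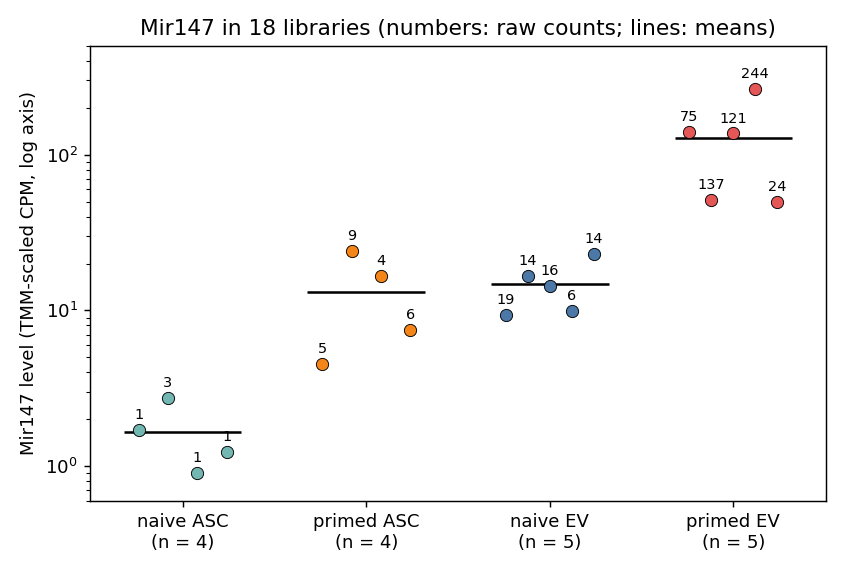
Level of Mir147 in TMM-scaled CPM (log axis) in each of the 18 libraries by group, with the raw count above each point and the group mean as a line. The 5 primed EV libraries sit between 49.9 and 264 CPM, above all others, and the primed ASC and naive EV points overlap.

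In order of their means, the groups stood at 1.65 ± 0.802 CPM in naive ASC (SD, n = 4), 13.2 ± 8.95 CPM in primed ASC (n = 4), 14.7 ± 5.62 CPM in naive EVs (n = 5) and 129 ± 87.7 CPM in primed EVs (n = 5). The middle groups did not differ beyond their spread, since primed ASC ran from 4.54 to 24.2 CPM and naive EVs from 9.31 to 23.1 CPM. The other neighbours in this order did not overlap. Naive ASC ended at 2.74 CPM, below the lowest primed ASC library, and primed ASC ended at 24.2 CPM, below the lowest primed EV library.

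Priming went with a higher Mir147 level in EVs. The fitted log2 fold change of primed against naive EVs was 3.15 (SE 0.49, n = 5 and 5), which is 8.85-fold. Summed counts of 601 and 69 gave a ratio of 8.23 (95% interval 6.40 to 10.7, counting error only). This was the largest increase of the 245 loci, whose median log2 fold change was 0.02. Of all 245 loci, 6 (2.45%) had every primed EV library above every naive one.

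The same direction was seen in the cells. The fitted log2 fold change of primed against naive ASC was 2.71 (SE 0.76, n = 4 and 4), which is 6.54-fold. Summed counts of 24 and 6 gave a ratio of 5.71 with a wide 95% interval of 2.27 to 17.1. It was again the largest increase of the 245 loci, with a median log2 fold change of -0.12 over all, and 16 loci (6.53%) had every primed ASC library above every naive one. In the ASC libraries taken alone Mir147 did not reach the filter on low counts, so its place among the 245 loci comes from the EV libraries.

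The log2 fold change with priming in EVs exceeded that in ASC by 0.43 (SE 0.905), a difference smaller than its error. In folds, 1 SE on either side spans 0.722 to 2.53 around 1.35, so a like effect in EVs and cells is not shown. Leaving out 1 library at a time gave -0.16 to 0.77, and the other settings 0.0031 to 0.75.

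Mir147 was also higher in EVs than in cells, in either state. Naive EVs stood 3.02 above naive ASC on the log2 scale (SE 0.69, n = 5 and 4), 8.10-fold. Summed counts of 69 and 6 gave a ratio of 7.95 (95% interval 3.47 to 22.4). Primed EVs stood 3.45 above primed ASC (SE 0.58, n = 5 and 4), 10.9-fold, and 601 against 24 counts gave a ratio of 11.5 (95% interval 7.63 to 18). These ranked 26 and 25 among the 245 loci. Large differences between EVs and cells were common, with 30.2% of loci higher without overlap in naive EVs and 27.8% in primed EVs. The direction from cells to EVs held with every scaling tried.

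The libraries of 1 group differed most in primed EVs and primed ASC. The coefficient of variation of Mir147 was 68.2% in primed EVs, where counting error alone gives about 12.2%. It was 38.3% in naive EVs, against 29.1% from counting. In primed ASC the 2 figures were 67.8% and 42.7%, and in naive ASC 48.7% and 91.3%, so the spread in naive cells was within counting error. The SD of Mir147 on the log2 scale in primed EVs, 1.0, was larger than that of all but 7 of the 83 loci whose mean lay within 3-fold of its own, and their median SD was 0.42. In primed ASC the SD was 0.99, and 15 of 57 such loci, with a median SD of 0.71, had a larger one. The naive groups went the other way. In naive EVs the SD was 0.51, and 45 of 57 such loci had a larger one. In naive ASC it was 0.42, and 13 of 17 such loci had a larger one. Counting error was small beside the spread in primed EVs. Primed EV 2, with 3052942 counts in total, had an unscaled level of 44.9 CPM (95% exact binomial interval 37.7 to 53.0), and primed EV 4, with 1363278 counts, had 179 CPM (interval 157 to 203).

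The primed libraries carry a suffix in their titles, IFG1, IFG2 or IFG1+2, which the labels do not explain, and Mir147 was lower in those with IFG1. This reading was made after the values were seen. The 2 primed EV libraries with IFG1, replicates 5 and 2, had 49.9 and 51.1 CPM. Those with IFG2, replicates 1 and 4, had 141 and 264 CPM, and replicate 3 with IFG1+2 had 137 CPM. In ASC the library with IFG1, replicate 2, had 4.54 CPM, and the 3 libraries with IFG2 had 24.2, 16.6 and 7.45 CPM. Replicates 1 and 5 of primed EVs have the same number in their titles, 5, and differ in the suffix. Their unscaled levels were 101 CPM (95% exact binomial interval 79.2 to 126) and 38.3 CPM (24.5 to 57.0). The lower of the IFG1 libraries still lay above all naive libraries of the same sample type. Of the 245 loci, 20 (8.16%) had the IFG1 libraries lowest in EVs and in ASC, among them Mir147 and Mir146. With 1 to 3 libraries per suffix and sample type, the suffix was not tested.

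**Figure D2:**
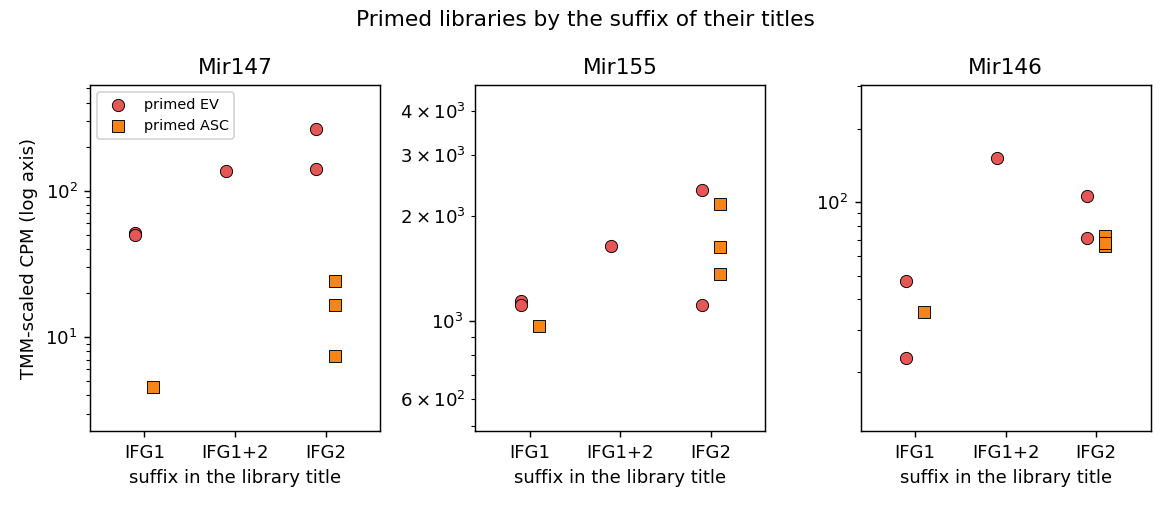
Levels of Mir147, Mir155 and Mir146 in TMM-scaled CPM (log axis) in the 9 primed libraries by the suffix of their titles, with circles for EVs and squares for ASC. For Mir147 and Mir146 the IFG1 points lie lowest within each sample type, while for Mir155 in EVs an IFG2 library reaches down to the IFG1 points.

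Total counts ran from 180812 in primed ASC 4 to 3052942 in primed EV 2. The 7 mesenchymal stromal marker loci that passed the filter, with Mir199a-1 below it, summed to 114000 to 267000 CPM in ASC libraries and 245000 to 476000 CPM in EV libraries. Mir143 had the highest mean of the list in each group, with 247000 and 301000 CPM in naive and primed EVs. In either state it was higher in EVs than in cells by edgeR, while Mir145a and Mir214 were lower (log2 fold changes -2.79 and -2.17 in naive EVs). Mir199a-2 and Mir199b were called higher in primed EVs only, and Mir10a and Mir10b in neither. No marker locus in the files was at 0 in all libraries, and Mir142, Mir486b and Mir126b were not in the files. All 3 myeloid and lymphoid marker loci in the files (Mir223, Mir142b and Mir150) were detected. They summed to 55.5 to 92.6 CPM in naive ASC, 50.9 to 187 CPM in primed ASC, 2160 to 8460 CPM in naive EVs and 869 to 5240 CPM in primed EVs. Mir223, a locus of myeloid cells, had means of 1.87, 3.97, 163 and 127 CPM in the same order.

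These markers moved with Mir147 between cells and EVs, and their part in that difference was not tested. Between naive and primed EVs their log2 fold changes were -0.36 for Mir223, -0.28 for Mir142b and -0.48 for Mir150, while that of Mir147 was 3.15. In ASC they were 0.97, 0.92 and 0.48, and none of the 3 passed the test in EVs or ASC (smallest adjusted p = 0.336, edgeR). DESeq2 and limma-voom called 0 of them, and 0 had an unadjusted p under 0.05. Of all 245 loci, edgeR called 0.816% higher and 0.0% lower with priming in EVs, and 5.31% higher and 4.9% lower in ASC. Before adjustment, p by edgeR was under 0.05 for 25 of the 245 loci in EVs and 57 in ASC. Shares over all loci, here and below, include Mir147 itself. In primed EV 1 to 5 the marker sum was 4150, 869, 2650, 5240 and 3100 CPM, so replicate 4 was highest in it and in Mir147. Replicates 2, 3, 1 and 4 rose in this order in both, while replicate 5, lowest in Mir147, stood above replicates 2 and 3 in the sum. In naive EV 1 to 5 the sum was 2160, 2380, 3240, 8460 and 3800 CPM, and replicate 4, with the highest sum, had 9.96 CPM of Mir147, below all but replicate 1. In primed ASC 2 to 5 it was 92.7, 151, 187 and 50.9 CPM, with replicates 3 and 4 highest in both. The 3 red cell loci summed to 806 to 8930 CPM in EV libraries and 28.6 to 232 CPM in ASC libraries, and endothelial Mir126a to 2250 to 10500 and 52.2 to 444 CPM. The 6 epithelial loci varied widely within groups, with 15.7 to 3350 CPM in naive EVs, 8.2 to 821 in primed EVs, 32.6 to 2220 in naive ASC and 51.8 to 1030 in primed ASC. For priming in EVs or ASC, edgeR, DESeq2 and limma-voom each called 0 of these loci, and 0 had an unadjusted p under 0.05 by edgeR, to be read against the same shares. Of the 7 mesenchymal loci tested, Mir143 fell by 0.89 in primed ASC (adjusted p = 0.0232, edgeR). Mir145a at -0.71 and Mir199a-2 at -0.72 had an unadjusted p under 0.05 by edgeR there, where 57 of all 245 loci did. Limma-voom called Mir143 and Mir145a, DESeq2 Mir143. In bulk libraries, fewer cells of a type and less RNA per cell cannot be told apart.

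**Figure D3:**
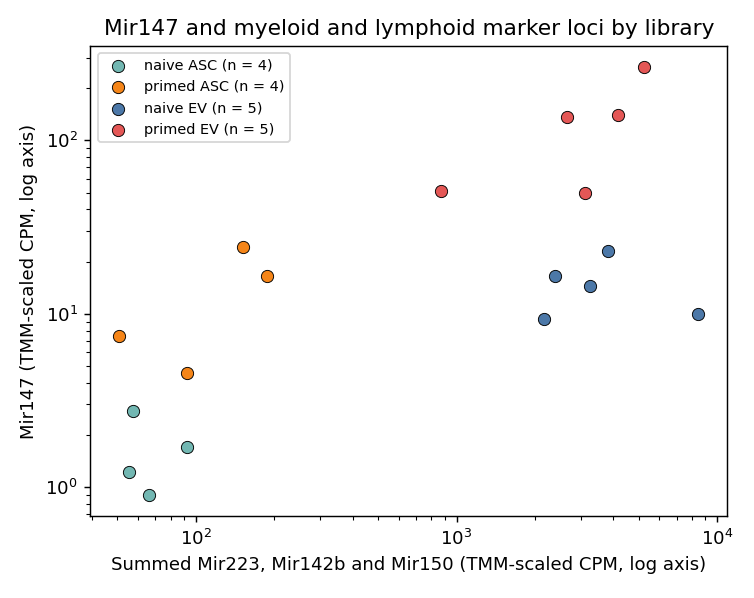
Level of Mir147 against the summed level of Mir223, Mir142b and Mir150, both in TMM-scaled CPM on log axes, with 1 point per library. Naive and primed EV libraries overlap in the marker sum but not in Mir147, and all EV libraries lie far to the right of the ASC libraries.

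Mir147 was set beside 32 loci linked to Toll-like receptor, NF-kB or interferon responses, of which 31 were in the files and 24 passed the filter. In EVs, 0 of the 24 rose with priming and 0 fell (quasi-likelihood test of edgeR, p adjusted over all 245 loci by Benjamini-Hochberg, under 0.05), where 0.816% of all loci were called higher and 0.0% lower. Of the 24, 5 had an unadjusted p under 0.05 by edgeR, against 25 of all 245 loci. DESeq2 called 1 of the 24 higher and 1 lower, with 5 calls among all loci. Limma-voom called 0 of the 24, with 2 calls among all loci. The median log2 fold change of the 24 was 0.17, against 0.02 over all loci, and the range was -0.98 to 0.67. The value of Mir147 lies outside it.

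Mir155, a microRNA of activated lymphocytes and macrophages, had 935 CPM in naive and 1480 CPM in primed EVs, with a log2 fold change of 0.66 (SE 0.26, adjusted p = 0.379 by edgeR). Mir146, which encodes miR-146a, a brake on NF-kB signalling, had 72.7 and 79.8 CPM with a log2 fold change of 0.14, which turned to -0.13 with library totals alone and to -0.15 without primed EV 3. Mir21a, abundant in growing and injured cells and, like Mir147, inside an exon of a protein-coding gene, was at 0.20. Mir132 and its neighbour Mir212 were at 0.45 and 0.25, Mir31 at -0.98 and Mir210, a microRNA of hypoxia, at -0.86, neither called by edgeR. Mir31 was called lower by DESeq2, with no filter on low counts and without primed EV 2. Mir125b-2, at 0.59 (adjusted p = 0.0834 by edgeR), was called higher by DESeq2 and without naive EV 1, naive EV 3, primed EV 2 or primed EV 5. Mir29a and Mir29c, which target collagen mRNAs, were at 0.21 and 0.17.

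**Figure D4:**
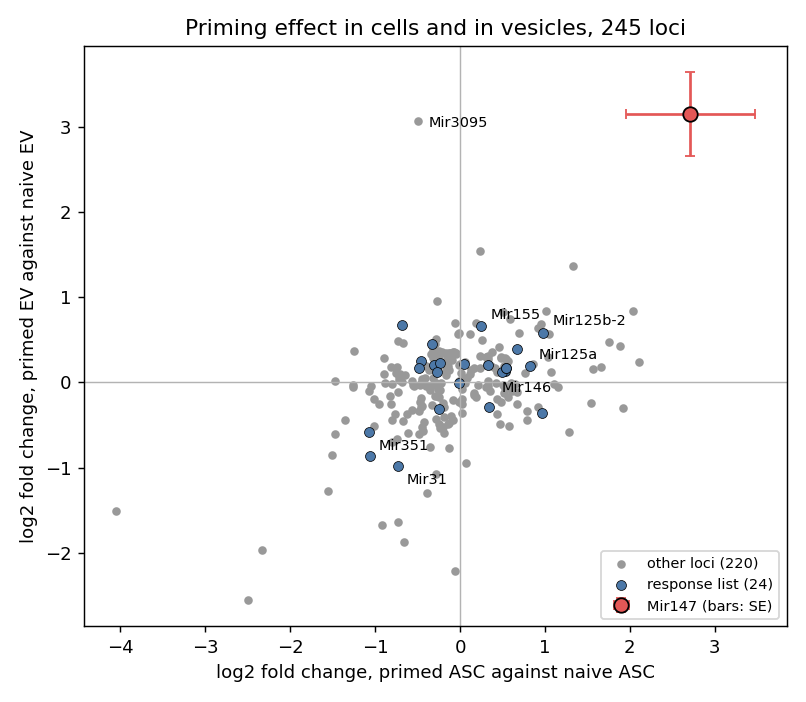
Log2 fold change with priming in ASC (x axis) and in EVs (y axis) for 245 loci, with the response list in blue and Mir147 in red with its SE. Mir147 stands at 2.71 and 3.15, while the response list runs from -1.1 to 0.98 in ASC and from -0.98 to 0.67 in EVs.

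In the cells, 3 of the 24 response loci rose with priming and 1 fell, where 5.31% of all loci were called higher and 4.9% lower. Those that rose were Mir125a at 0.82, Mir125b-1 at 0.68 and Mir125b-2 at 0.98, and the locus that fell was Mir351 at -1.07. Their products share the seed shown above, and miR-125b-5p can come from either of 2 loci. Adjusted p-values were 0.00883, 0.0115, 0.00469 and 0.00762 by edgeR. The call of Mir125b-1 was lost without naive ASC 3 or naive ASC 4 and with no filter on low counts (adjusted p up to 0.134 by edgeR). Mir155 was at 0.25 and Mir146 at 0.54 in ASC, neither passing. The median of the list was 0.02, against 2.71 for Mir147.

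Between EVs and cells, the list went in both directions. In naive EVs 5 of 24 were higher and 9 lower than in naive ASC, where 33.5% of all loci were called higher and 32.7% lower. In primed EVs 7 were higher and 9 lower than in primed ASC, against 35.9% and 32.2% of all loci. Mir223 at 6.29 and 4.97, Mir29c at 3.39 and 3.01 and Mir21a at 3.07 and 3.58 were higher in naive and primed EVs, as Mir147 was at 3.02 and 3.45. Mir125a at -2.23 and -2.86 and Mir125b-1 at -2.24 and -2.52 were lower in EVs. The difference between the priming effects in EVs and ASC was called for 0 of the 24 by edgeR, with 0.0% of all loci called higher and 0.0% lower. In that test 2 of the 24 had an unadjusted p under 0.05, against 26 of all 245 loci. DESeq2 called 1 of the 24 lower, with 3 calls among all loci. Limma-voom called 0 of the 24, with 0 calls among all loci.

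The loci whose profiles over the 18 libraries came nearest to that of Mir147 resembled it in the difference between EVs and cells. Likeness was measured as the root mean square difference between log2(CPM + 1) profiles, each centred on its own mean, among the 245 loci. The nearest were Mir24-2 at 1.33, the locus Gm22133 at 1.39, Mir30e and Mirlet7f-1 at 1.43 each and Mir101a at 1.44, where a flat profile stands 2.04 from Mir147 and the median locus 2.22. All 5 were higher in EVs than in cells, and their log2 fold changes with priming in EVs lay between -0.05 and 0.58, none of them called. That of Mir147 was 3.15. With a pseudocount of 5 CPM, 2 of the 5 stayed among the nearest.

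Over the 10 EV libraries alone the nearest locus was Mir3095 at 0.852, followed by Mir5114 at 1.18, Mir140 at 1.20, Mirlet7a-1 at 1.21 and Mir99a at 1.22, with a flat profile at 1.59. Mir3095 had means of 0.428 CPM in naive and 4.57 CPM in primed EVs and a log2 fold change of 3.07, which did not pass (adjusted p = 0.0834 by edgeR). In naive and primed ASC it had 14.4 and 11.7 CPM, where Mir147 had 1.65 and 13.2 CPM. Mir140, a microRNA of cartilage, had 5050 and 9030 CPM with a log2 fold change of 0.84 and an adjusted p of 0.011 by edgeR. That call was lost in 7 of 26 other settings, which were library totals alone and fits leaving out naive ASC 1, naive ASC 3 or a primed ASC library. Mir5114, within an exon of Scd2, was at 1.37 without a call.

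On chromosome 2, the loci with counts on either side of Mir147 lie far from it. The nearest locus with counts upstream, Mir674, lies 5455577 bases away, and its log2 fold change with priming was 0.12 in EVs and 0.44 in ASC, without a call. The nearest one downstream, Mir3473g, lies 4261369 bases away and had 17 counts in all libraries.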

How the data were processed

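The deposited values are raw counts per miRNA hairpin locus, 1 file per library. Per the file headers, featureCounts 1.5.3 made them, unstranded, with Ensembl 76 miRNA genes. The submitters' processing notes list GRCm38, STAR 2.0.4, featureCounts 1.45, Subread and bcl2fastq. How reads were trimmed and aligned is not given in the sources. Intervals cover counting error only and leave out the spread between libraries. They treat reads as independent molecules, which reads are not.

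Of 2009 loci, 1894 matched GENCODE M21 by identifier, and 15 took the RefSeq name at their place. filterByExpr kept 245 loci with 99.9573% of counts. Libraries were scaled by TMM (factors 0.678 to 1.56), and 1 mean per group was fitted with edgeR 4.0.16 in R 4.3.3. The quasi-likelihood test was adjusted by Benjamini-Hochberg over all 245 loci, with a threshold of 0.05. Each SE is approximate, the log2 fold change divided by the root of its F statistic. For the difference between priming effects the SE is the root of the summed squares of both SEs. The fit was tested on simulated counts. DESeq2 1.42.0 and limma 3.58.1 were alternatives.

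Named loci are Mir147, the response list, marker loci and loci sharing bases 2 to 7 with miR-147-5p. The nearest counted loci on either side and the 5 most alike over 18 and over 10 libraries are also named. The locus and the lists were chosen with earlier results of these data known. Replicates of a group differed by more than sampling noise (chi-square per degree of freedom at least 19.7).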

Additional observations from a re-analysis of the deposited data

How the results depend on the processing

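Mir147 kept its direction in all alternatives of the 4 comparisons between groups. Its log2 fold change ran from 2.77 to 3.11 for priming in EVs, 2.18 to 2.96 for priming in ASC, 2.61 to 3.37 for naive EVs against ASC and 2.68 to 3.50 for primed EVs against ASC. Leaving out 1 library gave 2.76 to 3.35, 2.22 to 3.16, 2.78 to 3.52 and 3.00 to 3.88. With only the groups compared, Mir147 missed the filter in the ASC comparison and in naive EVs against naive ASC, so no value is given. Its depth in naive ASC, 6 counts, limits priming in ASC, naive EVs against naive ASC and the difference between priming effects. The group means without 1 library ran from 12.6 to 16.0 CPM in naive EVs, 94.7 to 148 in primed EVs, 1.28 to 1.90 in naive ASC and 9.53 to 16.1 in primed ASC.

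For priming in EVs, response loci called higher numbered 1 with DESeq2, and 1 was called lower with DESeq2 and with no filter, in place of 0 and 0. All calls numbered 1 with library totals only, 8 with no filter and 5 with DESeq2, in place of 2. For priming in ASC, DESeq2 called 5 response loci higher in place of 3, and no filter gave 2 lower in place of 1. All calls were 40 with DESeq2 and 15 with only the groups compared, in place of 25. For the difference between priming effects, DESeq2 called 1 response locus lower, and all calls were 3 with no filter and 3 with DESeq2, in place of 0. The cause was not tested. Without 1 library, all calls ran from 1 to 8 for priming in EVs (8 without primed EV 2, 4 without naive EV 1, and 1 when naive ASC 1, naive ASC 3 or a primed ASC library was left out), 6 to 33 in ASC (6 without naive ASC 3 or 4, 11 without primed ASC 3, 12 without primed ASC 4) and 0 to 1 for the difference (1 without naive ASC 5). Response loci called in EVs ran from 0 to 1 in each direction (1 higher without naive EV 1 or 3 or primed EV 2 or 5, 1 lower without primed EV 2), and from 2 to 4 higher in ASC. Mir146 in EVs was at -0.13 with library totals only and ran from -0.15 (without primed EV 3) to 0.67 (without naive EV 3).

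Deviations of libraries with the same source number correlated at -0.175 to 0.501 across loci (16 pairs, none joining titles 1+2 and 2). Of these, 12 were over 0.1, the other 4 all numbered 5. Not every pair was over 0.1, so libraries were not paired, although 17 of 32 correlated best with their own number, a hint of pairing. A replicate block on the numbers in the titles gave 7 calls for priming in EVs, among them 1 response locus higher (Mir125b-2) and 1 lower (Mir31). A replicate block on the source names gave 1 response locus lower in EVs, and either block gave 2 lower in ASC. For Mir147 the source name block gave 2.92 for priming in EVs and in ASC.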

Other observations

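Mir147 is not the only tested locus inside an exon of a protein-coding transcript. There were 8 others, and their log2 fold changes with priming ran from -0.54 to 1.4 in EVs (median 0.17) and from -0.3 to 1.3 in ASC (median 0.30). In EVs 0 of the 8 were called by edgeR's quasi-likelihood test, which called 0.816% of all loci higher and 0.0% lower. Of the 8, 1, Mir5114, had an unadjusted p under 0.05 in that test, against 25 of all 245 loci. DESeq2 and limma-voom called 0 of the 8 in EVs. In ASC edgeR and limma-voom called 1, Mir671, within Chpf2, higher at 1.07, and DESeq2 called Mir671 and Mir5114, against 5.31% of all loci called higher by edgeR. Between EVs and cells they split, with 2 higher and 4 lower in naive EVs and 2 higher and 5 lower in primed EVs. Of all loci, 33.5% were higher and 32.7% lower in naive EVs and 35.9% and 32.2% in primed EVs. These 8 include Mir21a, within Vmp1, and Gm22133, within the ferritin light chain gene Ftl1. Reads of the host transcripts are not told apart from reads of the hairpins at these loci either.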
